A study of Mus musculus with 12 samples.

Results

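The 10 genes described here build and load MHC class I molecules, and they were followed in cultured mouse hepatic progenitor cells given IL-4, IL-13 or vehicle. They were chosen by name as the class I heavy chains H2-K1, H2-D1 and H2-T23, the light chain B2m, the peptide transporter and its partners Tap1, Tap2 and Tapbp, the immunoproteasome subunits Psmb8 and Psmb9, and the trimming peptidase Erap1. These are 10 of the 19057 genes that the array names, and every probe annotated to them was taken, 23 of 45281 probes in all. Of the 23 probes 18 were detected on at least 4 arrays and could be tested, and they stand for 9 of the 10 genes. Erap1 had no probe that could be tested.

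MHC class I molecules carry peptides from proteins made inside a cell to its surface, where cytotoxic T cells and natural killer cells read them. Proteasomes cut the proteins, the Tap1 and Tap2 transporter pumps the peptides into the endoplasmic reticulum, Tapbp (tapasin) holds empty class I molecules at the transporter, and Erap1 trims peptides to length. A heavy chain reaches the surface stably only when it is bound to B2m and a peptide. In liver epithelium, as in most tissues, these genes are known for their strong induction by interferon gamma. The type 2 cytokines IL-4 and IL-13 both bind receptors that contain the Il4ra chain, and STAT6 is the main transcription factor these receptors activate.

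The cells, epithelial precursors of the liver, had been sorted as DAPI-, CD45-, CD31-, TER119-, EpCAM+, CD24+ and CD133+ and were grown in medium with serum, dexamethasone, IL-6, hepatocyte growth factor and epidermal growth factor. All groups were deprived of serum for 24 hours, after which the IL-4 group received recombinant IL-4 at 50 ng/mL, the IL-13 group recombinant IL-13 at 50 ng/mL, and the control group the bovine serum albumin vehicle. Each of the 3 groups has 4 Illumina arrays, spread over 2 chips with 2 arrays per group on each chip. The strain and age of the mice, the length of the cytokine exposure and whether replicates came from separate cultures are not stated in the labels, so the p-values rest on a spread between samples that could be technical. Precision is limited by the number of arrays, and in RNA from whole cultures a lower transcript level per cell cannot be told apart from fewer cells that make it.

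Between 18469 and 19869 probes were detected on each array (40.8 to 43.9%), and arrays of the same group correlated with r between 0.993 and 0.997. The progenitor and duct genes Cd24a, Krt19, Krt7 and Sox9 were detected on all 12 arrays. Krt7, a duct keratin, was lower with both cytokines, by -0.36 with IL-4 and -0.44 with IL-13 on the log2 scale (limma adjusted p = 0.0145 and 0.00201), and its IL-4 call was lost without IL-4 4 or control 2 (0.0616 and 0.0641). Prom1, the gene of the CD133 used in the sort, was dim on all 3 of its probes. The brightest was detected on 1 IL-4, 3 IL-13 and 1 control array, another on 1 IL-4 array only, and the last on 0 arrays. The single Epcam probe was detected on 0 arrays, although the cells were sorted for that protein, and the hepatocyte gene Alb was detected on 0 arrays as well. Among leukocyte genes, which matter here because leukocytes carry much class I, Adgre1 and Tyrobp were detected on 0 arrays and Ptprc on 1 IL-4 array, and 16 of the 29 leukocyte genes on the array were detected nowhere. Of the 29, 3 could be tested (Cd8b1, Cd14 and Csf1r), and none of them passed the test. The summed linear signal of these 3 was 2213 to 2473 on IL-4 arrays, 2392 to 2592 on IL-13 arrays and 1975 to 2254 on control arrays, and the part of this difference in the class I results was not tested. Hemoglobin transcripts were uneven, with a summed erythroid signal of 34.2 to 1480 on IL-4 arrays, 24.4 to 42.2 on IL-13 arrays and 23.4 to 146 on control arrays. The summed stromal signal was 99.4 to 222 with IL-4, 62.6 to 135 with IL-13 and 233 to 452 in control. Among the 4 tested stromal genes, Acta2, a smooth muscle actin, was lower with IL-13 on 2 of its 4 probes, by -2.07 on the brightest (adjusted p = 6.12e-05), and its -0.85 with IL-4 did not pass (adjusted p = 0.130). Of the 4 genes 3 had a positive change with IL-13 (at most 0.16) and 2 with IL-4 (at most 0.05), so the stromal genes did not fall together. Of the 13 stromal genes on the array 8 were detected nowhere. The part of the Krt7, erythroid and stromal differences in the class I results was not tested, other than by leaving out the arrays with most hemoglobin signal.

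All levels below are normalised log2 signals of 1 probe on 1 array, and all changes are differences of group means on that log2 scale, cytokine minus control, with the standard error of the fit. Tests were made with limma over all 19915 probes, and a probe counts as changed where its p, adjusted by the Benjamini-Hochberg method, was under 0.05. Where a gene has several probes they are numbered by their mean signal. The signals of different probes are not compared as amounts of transcript.

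All genes but Tap2, 9 of 10, have a promoter sequence in the RefSeq table used here (GRCm38.p6). The 250 bases before a RefSeq start are shown for H2-T23, the gene with the clearest change, and for its classical relatives H2-K1 and H2-D1. The same stretch is shown for B2m, the common partner of these heavy chains. Capitals mark matches to 5 motifs searched on both strands, namely an NF-kB site (GGGGA, any 1 base, TCCCC), the core of an interferon-stimulated response element (GAAA, any 2 bases, GAAA), a STAT6 site (TTC, any 4 bases, GAA), a CREB site (TGACG) and a CCAAT box (CCAAT). The H2-T23 window is chr17:36032702-36032951 on the minus strand and that of H2-K1 chr17:34000348-34000597 on the minus strand. That of H2-D1 is chr17:35262844-35263093 on the plus strand and that of B2m chr2:122147437-122147686 on the plus strand. H2-K1 has another window, chr17:34000334-34000583, for a start 14 bases away. It holds CCAAT 2 times, and the H2-K1 window shown holds it 1 time. Both H2-K1 windows lie inside the span of the gene (33996012-34000619), so neither precedes the outer end of that span.
H2-T23: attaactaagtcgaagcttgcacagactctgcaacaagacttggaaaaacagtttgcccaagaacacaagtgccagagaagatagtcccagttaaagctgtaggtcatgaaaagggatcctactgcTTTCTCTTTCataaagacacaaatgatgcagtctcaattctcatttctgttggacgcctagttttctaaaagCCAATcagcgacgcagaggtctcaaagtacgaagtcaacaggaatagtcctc
H2-K1: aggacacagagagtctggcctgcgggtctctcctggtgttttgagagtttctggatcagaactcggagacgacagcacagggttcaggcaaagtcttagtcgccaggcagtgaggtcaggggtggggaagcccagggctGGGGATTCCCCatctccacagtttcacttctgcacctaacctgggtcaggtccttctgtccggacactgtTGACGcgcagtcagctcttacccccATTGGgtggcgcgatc
H2-D1: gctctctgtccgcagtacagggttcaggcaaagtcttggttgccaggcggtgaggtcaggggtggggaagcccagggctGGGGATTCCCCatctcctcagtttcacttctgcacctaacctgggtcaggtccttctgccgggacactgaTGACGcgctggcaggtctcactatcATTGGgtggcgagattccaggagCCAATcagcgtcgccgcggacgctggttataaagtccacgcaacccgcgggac
B2m: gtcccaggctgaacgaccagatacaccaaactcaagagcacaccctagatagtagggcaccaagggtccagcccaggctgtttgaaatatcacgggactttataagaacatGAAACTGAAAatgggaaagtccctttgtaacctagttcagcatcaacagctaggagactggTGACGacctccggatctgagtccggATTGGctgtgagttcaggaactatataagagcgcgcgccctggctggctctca

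The H2-K1 and H2-D1 promoters are close relatives, with 91.0% identity over 177 aligned columns. Both hold the NF-kB site, which only 0.0457% of 32851 mouse promoter windows hold, and in both its first base lies 70 bases upstream of the first base of the CREB site. H2-T23 lacks these letters in its window and holds the interferon element core, read on the opposite strand between 124 and 115 bases before the start. B2m holds the same element between 139 and 130 bases before its start, and 2.98% of all windows do. The H2-K1 and H2-D1 windows had no match to that exact pattern, but other forms of the element were not searched, so its absence there was not shown. Of the 9 genes with a promoter, the CREB letters occur in 5 (17.8% of windows) and CCAAT in 7 of the 9 (33.8% of windows). The STAT6 letters occur in 0 of the 9 windows and in 5.85% of all windows. Tap1 and Psmb9 are transcribed away from each other from a shared stretch, and their 300-base windows have 275 bases in common. These matches describe letters only and were not tied to binding.

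Across the 18 tested probes, H2-T23 was the gene that rose with both cytokines, H2-K1 rose on 1 of its 3 probes with IL-4, and the other 7 genes did not pass with either cytokine. With IL-4, 3 of 18 member probes were higher and 0 lower (16.7% called), beside 2.38% of all tested probes called, 1.57% as higher and 0.808% as lower. With IL-13, 3 of 18 were higher and 0 lower (16.7%), beside 3.79% of all tested probes called, 2.33% as higher and 1.46% as lower. The 3 probes with IL-13 are the 3 probes of H2-T23, so they are repeated readings of a single gene. With IL-4 they are probes 2 and 3 of H2-T23 and probe 1 of H2-K1. The median change of the member probes was 0.14 with IL-4 and 0.15 with IL-13, against -0.01 over all tested probes in either comparison. The members were chosen with earlier results of these data known, so these shares and medians describe the set and do not test it. Both cytokines were set against the same 4 control arrays, so their changes are not independent of each other.

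**Figure D1:**
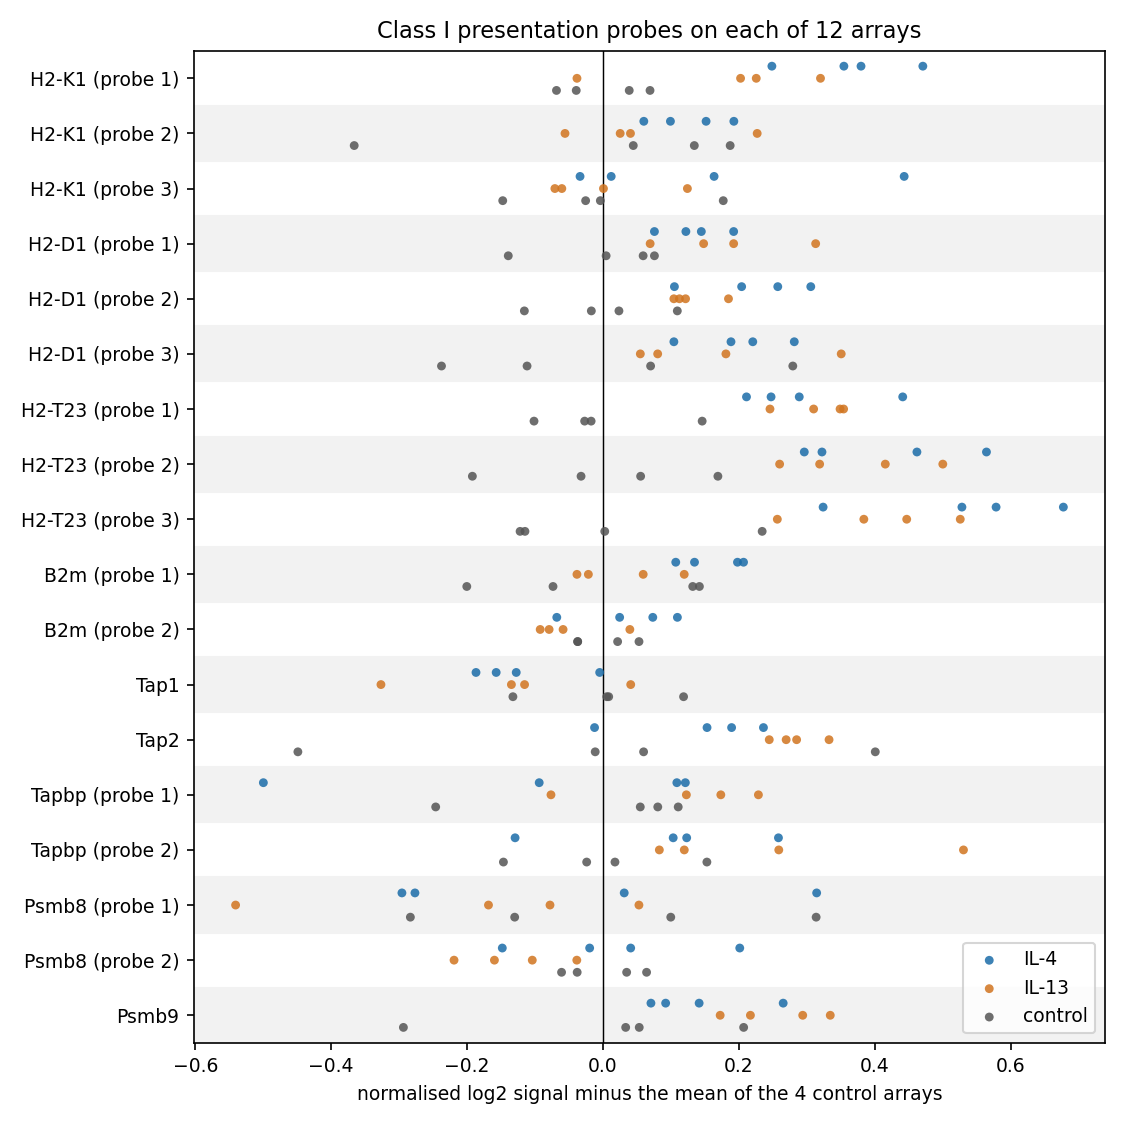
Normalised log2 signal of each tested probe of the class I genes on each array, plotted along the horizontal axis as the difference from the mean of the 4 control arrays, with 1 row per probe and IL-4, IL-13 and control from top to bottom within a row; each point is an array (n = 4 per group). The H2-T23 probes on IL-4 and IL-13 arrays lie above every control array, while the points of B2m, Psmb8 and Tapbp overlap between groups.

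H2-T23 encodes the heavy chain of Qa-1, a non-classical class I molecule that shows leader peptides of other class I chains to an inhibitory receptor of natural killer cells. It lies on chromosome 17 at 36029977-36032701 of GRCm38.p6 and is read by 3 probes (ILMN_2777474, ILMN_2777471 and ILMN_1223179). Probe 3 had log2 signals of 8.61, 8.56, 8.36 and 8.71 on IL-4 arrays and 8.29, 8.48, 8.42 and 8.56 on IL-13 arrays, against 7.92, 8.04, 7.91 and 8.27 on control arrays. Every cytokine array was above every control array, though the lowest IL-13 array (8.29) and the highest control array (8.27) nearly met. The change was 0.53 ± 0.10 with IL-4 (SE, 1.44-fold, limma adjusted p = 0.00442) and 0.40 ± 0.10 with IL-13 (1.32-fold, adjusted p = 0.0244).

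Probe 2 of H2-T23 read 9.68, 9.44, 9.41 and 9.58 with IL-4 and 9.53, 9.43, 9.37 and 9.61 with IL-13, against 9.17, 8.92, 9.08 and 9.28 in control. Its change was 0.41 ± 0.09 with IL-4 (limma adjusted p = 0.0194) and 0.37 ± 0.09 with IL-13 (adjusted p = 0.0273), again with no overlap of either cytokine with control. Probe 1 read 9.68, 9.53, 9.49 and 9.45 with IL-4 and 9.59, 9.59, 9.49 and 9.55 with IL-13, against 9.21, 9.14, 9.22 and 9.39 in control. These groups do not overlap either, but the change passed with IL-13 only, at 0.31 ± 0.08 (limma adjusted p = 0.0310), and not with IL-4, at 0.30 ± 0.08 (adjusted p = 0.0608). The IL-13 minus IL-4 difference for that probe was 0.02, with a 95% interval of -0.15 to 0.18, so the cytokines were not shown to differ there.

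The largest difference between the H2-T23 probes in their IL-4 change was 0.23, between probes 3 and 1 (exact permutation test over arrays, two-sided p = 0.0857, adjusted p = 0.686 over 24 such tests). The smallest p that 4 against 4 arrays allow is 0.0286, so no single one of the 24 tests could pass after adjustment, and they neither show nor exclude a difference between probes. Averaged over its probes, H2-T23 rose by 0.41 ± 0.08 with IL-4 (limma adjusted p = 0.00352) and by 0.36 ± 0.08 with IL-13 (adjusted p = 0.00728), and it alone of the 9 genes passed at that level in either comparison. On chip 1 alone the 3 probes changed by 0.43 to 0.61 with IL-4 and 0.41 to 0.44 with IL-13, and on chip 2 alone by 0.17 to 0.44 and 0.21 to 0.40, all of them positive. With the chip as a block the same numbers of member probes passed, 3 with each cytokine.

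Single arrays decided some of these calls. Probe 3 kept its IL-4 call whichever array was left out. Probe 2 lost it without IL-4 1, IL-4 4, control 2 or control 3 (limma adjusted p 0.0612 to 0.0832). The IL-4 count of 3 member probes fell to 1 without IL-4 1, IL-4 4 or control 2. With IL-13 no member probe passed without IL-13 2, IL-13 4 or control 2, where the changes of the 3 H2-T23 probes were 0.28 to 0.40 at adjusted p 0.0521 to 0.0952. A single H2-T23 probe passed without IL-13 1 or control 1. Without control 3 no H2-T23 probe passed with IL-13 (adjusted p 0.0705 to 0.0795), and the 1 member probe that did was Tap2 (0.0487). In the deposited log2 values, which have no background correction, the IL-13 changes were 0.22 to 0.27 and none passed (adjusted p 0.0538 to 0.0675), while probe 3 passed with IL-4 (0.34, adjusted p = 0.0285). When IL-4 2, IL-4 4 and control 4, the 3 arrays with most hemoglobin signal, were left out together, the probes changed by 0.39 to 0.53 with IL-4 and 0.36 to 0.48 with IL-13, and probe 3 was then the single member probe to pass with IL-4.

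**Figure D2:**
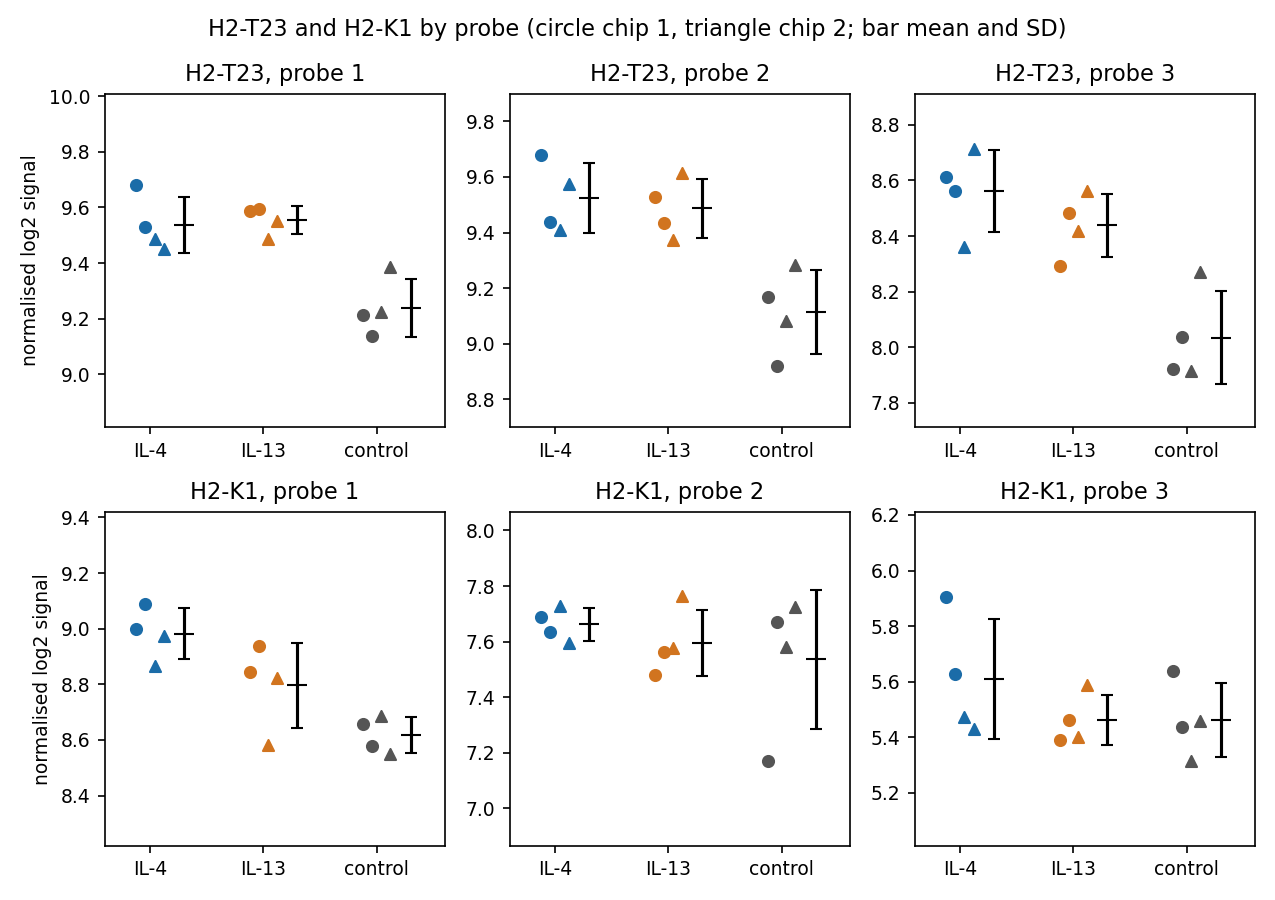
Normalised log2 signal of the 3 probes of H2-T23 and the 3 probes of H2-K1 on each array, with IL-4, IL-13 and control from left to right; circles are arrays of chip 1 and triangles arrays of chip 2, and bars show the group mean and SD (n = 4 each). All H2-T23 probes are higher on every cytokine array than on every control array, whereas of the H2-K1 probes only probe 1 with IL-4 is separated from control.

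H2-K1 encodes the classical heavy chain H-2K, which presents peptides to CD8 T cells, and its 3 probes did not give the same result. The gene lies on chromosome 17 at 33996012-34000619. Probe 1 (ILMN_2588139) had log2 signals of 8.998, 9.09, 8.87 and 8.97 on IL-4 arrays and 8.84, 8.94, 8.58 and 8.82 on IL-13 arrays, against 8.66, 8.58, 8.69 and 8.55 on control arrays. All IL-4 arrays exceeded all control arrays, and the change of 0.36 ± 0.09 passed (SE, 1.29-fold, limma adjusted p = 0.0270). With IL-13 the arrays overlap with control, and the change of 0.18 ± 0.09 did not pass (adjusted p = 0.323).

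Probe 2 of H2-K1 (ILMN_2634603) read 7.69, 7.64, 7.73 and 7.60 with IL-4 and 7.48, 7.56, 7.58 and 7.76 with IL-13, against 7.17, 7.67, 7.58 and 7.72 in control. Control 1 was the lowest array, and 3 of the 4 controls lay within the range of the cytokine arrays. Probe 3 (ILMN_2795520) read 5.91, 5.63, 5.47 and 5.43 with IL-4 and 5.39, 5.46, 5.40 and 5.59 with IL-13, against 5.64, 5.44, 5.32 and 5.46 in control, so all groups overlap. The changes with IL-4 were 0.13 ± 0.11 for probe 2 and 0.15 ± 0.10 for probe 3, with limma adjusted p of 0.717 and 0.637. With IL-13 they were 0.06 ± 0.11 and -0.00 ± 0.10, with adjusted p of 0.852 and 0.997.

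The difference between probes 1 and 2 of H2-K1 in their IL-4 change was 0.24 (exact permutation test, two-sided p = 0.229, adjusted p = 0.882), and that between probes 1 and 3 was 0.22 (p = 0.114, adjusted p = 0.686), in the same family of tests that could not pass singly. The mean of the 3 probes changed by 0.21 ± 0.07 with IL-4 and did not pass (limma adjusted p = 0.118). The IL-4 call of probe 1 was lost in 14 of 31 alternatives, among them without IL-4 1, IL-4 2, IL-4 4, control 1, control 2 or control 4 (limma adjusted p 0.0552 to 0.103), in the deposited log2 values (0.21, adjusted p = 0.214) and without the 3 arrays with most hemoglobin signal (0.29, adjusted p = 0.350). Its change stayed between 0.21 and 0.43 in all of them, and was 0.43 on chip 1 and 0.30 on chip 2. Probe sequences were not used here. Heavy chains of this family are nearly identical over long stretches, so how far these probes also bind transcripts of H2-D1 or of the H2-Q and H2-T genes was not tested, and the heavy chains are uncertain as separate measurements.

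H2-D1, the other classical heavy chain measured, sits on chromosome 17 at 35263094-35267497, and none of its 3 tested probes passed. Probe 2 (ILMN_2476267) came nearest with IL-4, with 10.60, 10.65, 10.45 and 10.55 on IL-4 arrays and 10.46, 10.47, 10.45 and 10.53 on IL-13 arrays, against 10.23, 10.37, 10.33 and 10.46 on control arrays. Its changes were 0.22 ± 0.08 with IL-4 (limma adjusted p = 0.194) and 0.13 ± 0.08 with IL-13 (adjusted p = 0.435). The IL-4 arrays overlap with control by a narrow margin, since IL-4 3 (10.45) was just below control 4 (10.46). Probes 1 and 3 had changes of 0.13 and 0.20 with IL-4 and of 0.18 and 0.17 with IL-13, all positive and with adjusted p of 0.258 or more. Without background correction probe 2 did pass with IL-4. Probe 4 was detected on 2 arrays, both of them controls, and was not tested.

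B2m, the light chain that every class I heavy chain needs, did not pass with either cytokine. It lies on chromosome 2 at 122147687-122153082. Probe 1 (ILMN_1216746) ran from 12.41 to 12.51 on IL-4 arrays and 12.26 to 12.42 on IL-13 arrays, against 12.10 to 12.44 on control arrays. Its changes were 0.16 (95% interval -0.02 to 0.34) with IL-4 and 0.03 (-0.15 to 0.21) with IL-13, neither of which passed (limma adjusted p = 0.483 and 0.915). Probe 2 (ILMN_2739999) changed by 0.03 (95% interval -0.12 to 0.19) and -0.05 (-0.20 to 0.11). A change as large as the 0.53 of H2-T23 probe 3 with IL-4, the largest member change, lies outside each of these 4 intervals. The 0.30 of H2-T23 probe 1 with IL-4 lies inside the IL-4 interval of B2m probe 1, so a rise of that size was not excluded on that probe. Probe 3 was detected on 0 arrays.

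Among the genes of the peptide transporter, none passed with either cytokine. Tap1, a subunit of the transporter, was near the detection limit, with 4.69 to 4.87 on IL-4 arrays and 4.55 to 4.91 on IL-13 arrays, against 4.74 to 4.99 on control arrays. It was detected on 11 arrays, and its changes of -0.12 ± 0.09 and -0.13 ± 0.09 had limma adjusted p of 0.663 and 0.499. Its dim signal limits what could be seen, because the offset added before taking logs pulls the changes of dim probes toward 0.

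Tap2, the other subunit, read 7.05, 6.85, 7.10 and 7.02 with IL-4 and 7.20, 7.15, 7.11 and 7.13 with IL-13, against 6.92, 6.85, 7.26 and 6.41 in control. The IL-13 arrays were tightly grouped inside a wide control range set by control 3 and control 4. The change of 0.28 ± 0.13 with IL-13 did not pass (limma adjusted p = 0.267), nor did that of 0.14 ± 0.13 with IL-4 (adjusted p = 0.736). When control 3 was left out Tap2 did pass with IL-13, as the only member probe to do so there.

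Tapbp, which bridges class I molecules to the transporter, changed by -0.09 and 0.09 on its 2 probes with IL-4 and by 0.11 and 0.25 with IL-13, with limma adjusted p between 0.246 and 0.849. For probe 1 with IL-4 the change was 0.21 on chip 1 and -0.39 on chip 2, so the chips went opposite ways. Erap1, the trimming peptidase, lies on chromosome 13 at 74639573-74693205 and had 3 probes, 1 of them detected on 1 control array and the others on 0 arrays. Its log2 signal stayed between 4.20 and 4.70 on all arrays and probes, which is a bound set by the array and not a level.

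The immunoproteasome subunits Psmb8 and Psmb9, which replace constitutive subunits when interferon acts on a cell, gave no call. Psmb9 read 6.01, 5.83, 5.81 and 5.88 with IL-4 and 6.08, 5.96, 6.04 and 5.91 with IL-13, against 5.45, 5.80, 5.95 and 5.78 in control. The low control 1 array (5.45) widened the spread, and the changes of 0.14 ± 0.10 with IL-4 and 0.25 ± 0.10 with IL-13 did not pass (limma adjusted p = 0.616 and 0.174). Psmb8 probe 1 ran from 7.53 to 8.14 with IL-4 and 7.28 to 7.88 with IL-13, against 7.54 to 8.14 in control. Its changes of -0.06 ± 0.15 and -0.18 ± 0.15 were negative, as was the IL-13 change of probe 2 (-0.13 ± 0.08). The IL-4 change of probe 2 was 0.02 ± 0.08, and none of the Psmb8 changes passed. On chip 1 probe 1 gave 0.38 with IL-4 and on chip 2 -0.49, which is the widest gap between chips among the member probes with IL-4.

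Counted without adjustment, 5 of the 18 probes had p under 0.05 with IL-4 and 7 with IL-13, all higher, beside 12.2% and 15.9% of all tested probes in either direction. Groups did not overlap for 4 probes with IL-4 and 3 with IL-13, where 7.36% and 9.61% of all tested probes did not. The 3 with IL-13 are the probes of H2-T23, and the 4 with IL-4 are these and probe 1 of H2-K1, so most are repeated readings of a single gene. The typical standard error of a member probe was 0.09. The smallest member change that passed was 0.31 and the largest that did not was 0.30. These values show where the calls fell and are not a limit of detection, since the standard error ranged from 0.07 to 0.15 between probes. Smaller changes could have been missed with 4 arrays a group.

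**Figure D3:**
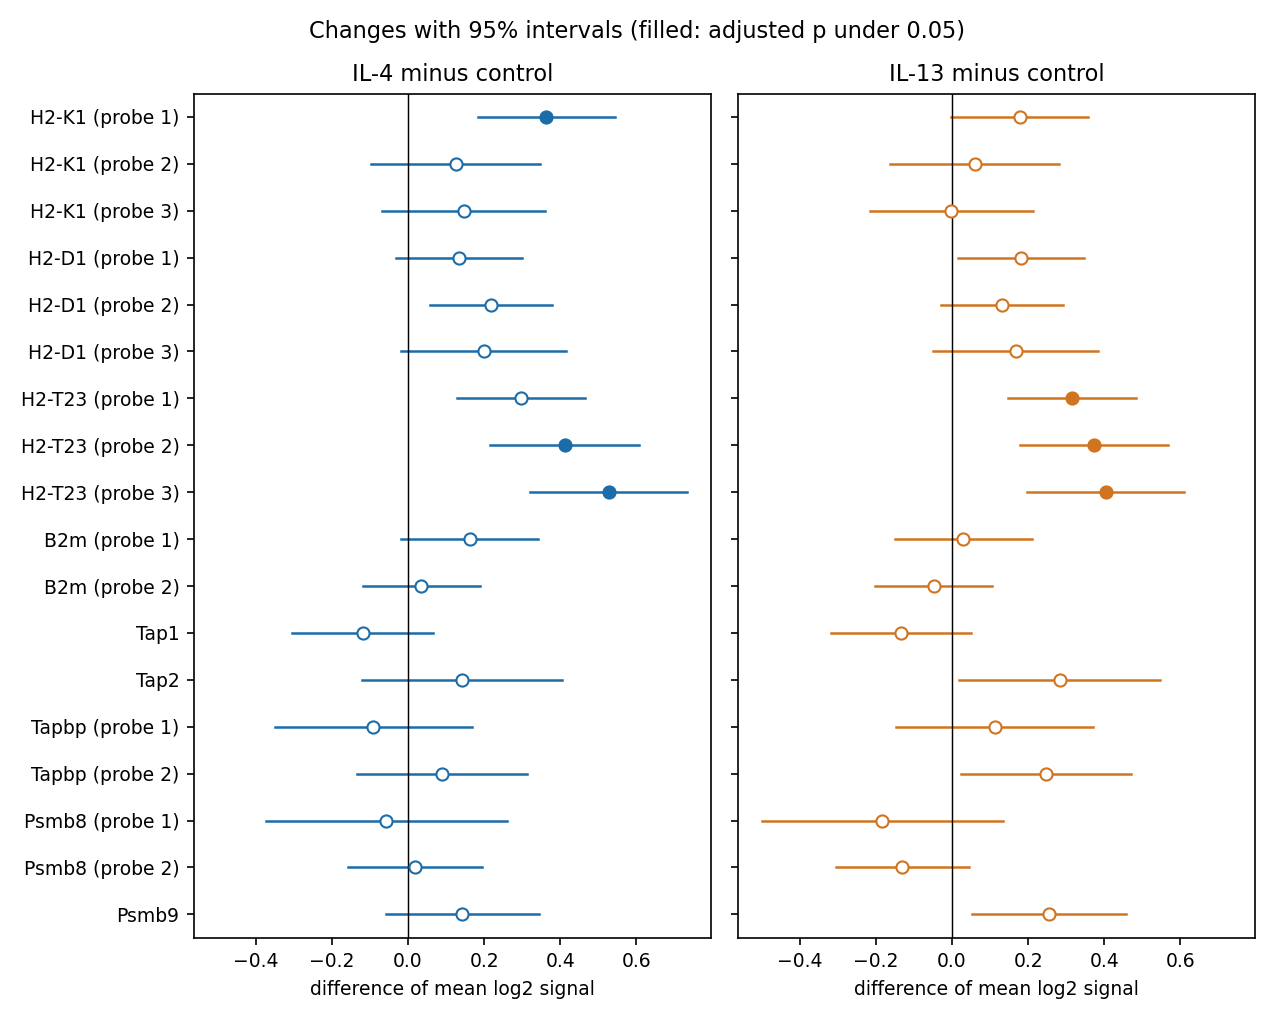
Change in normalised log2 signal (cytokine minus control) of the 18 tested class I probes with its 95% interval from the limma fit, with IL-4 in the left panel and IL-13 in the right; filled points passed at adjusted p under 0.05. The intervals of all H2-T23 probes lie above 0 with both cytokines, and those of Tap1, Psmb8 and B2m include 0. The intervals, which are not adjusted, also lie above 0 for H2-K1 probe 1 and H2-D1 probe 2 with IL-4. With IL-13 they do so for H2-D1 probe 1, Tap2, Tapbp probe 2 and Psmb9.

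IL-13 and IL-4 were given at the same dose and were not told apart by any class I probe. Of 18 probes 0 passed in the direct comparison, and of all 19915 probes 0 passed either (0%), with 1 member probe and 1574 probes in all (7.9%) at an unadjusted p under 0.05. The member probe is probe 1 of H2-K1, at -0.19 ± 0.09 for IL-13 minus IL-4 (limma adjusted p = 0.629), with a 95% interval of -0.37 to -0.01 before adjustment. For the H2-T23 probes the differences were 0.02, -0.04 and -0.12, with intervals that reach from -0.33 to 0.18 in all. Tap2 was the single member whose IL-13 arrays all exceeded its IL-4 arrays (4.88% of all tested probes did not overlap), with a difference of 0.14 (-0.12 to 0.40). A p that misses the threshold does not show that the cytokines act alike.

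Lists of the wider pathway are counted by gene, each through its brightest probe, and by that count 2.92% of all 10453 tested genes were called with IL-4 (1.92% higher, 0.995% lower) and 4.53% with IL-13 (2.92% higher, 1.61% lower). A list this short with 0 or 1 call is not read as different from that share.

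Among 13 tested class I-like chains outside the chosen 10, H2-Q5 was higher with both cytokines. H2-Q5 is a Qa-2 region chain, and the brighter of its 2 tested probes averaged 9.84 ± 0.14 on IL-4 arrays and 9.82 ± 0.08 on IL-13 arrays, against 9.45 ± 0.12 on control arrays (SD, n = 4 each). The changes of 0.39 ± 0.09 with IL-4 and 0.37 ± 0.09 with IL-13 passed (limma adjusted p = 0.0211 and 0.0222). Its dimmer probe, detected on 0 control arrays, changed by 0.35 and 0.28 and did not pass (adjusted p = 0.0857 and 0.144). Azgp1, a secreted class I-like protein linked to lipid release, was lower with IL-13, by -0.36 ± 0.09 (adjusted p = 0.0200), a call lost without IL-13 3, IL-13 4 or control 1 (0.0511 to 0.0794). The other 11 chains did not pass, with a list median of -0.04 with IL-4 and -0.05 with IL-13. Among those 11 H2-Q7 changed by 0.23 and 0.25 and H2-T22 by -0.21 and -0.28, none past the threshold. Without IL-4 1, IL-4 2, IL-4 4, control 1, control 2 or control 3 the IL-4 call of H2-Q5 was lost (adjusted p 0.0549 to 0.0834), and its IL-13 call was lost without IL-13 2, IL-13 4, control 1 or control 3 (0.0694 to 0.0741).

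The other lists of peptide supply and loading hold too few genes for 0 calls to differ from the share over all genes. Of 10 tested chaperones and translocation genes of the endoplasmic reticulum, including Calr, Pdia3 and Tapbpl, 0 passed with either cytokine, and the median change was -0.01 with IL-4 and -0.00 with IL-13. Of 30 constitutive proteasome genes 0 passed, with medians of 0.00 and -0.04. Of the 4 tested genes of the inducible proteasome and its activator (Psmb10, Psme1, Psme2 and Pomp) 0 passed, and Psmb10, the remaining immunoproteasome subunit, changed by 0.21 (adjusted p = 0.242) and 0.15 (adjusted p = 0.377). Of 5 cytosolic peptidases 0 passed.

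**Figure D4:**
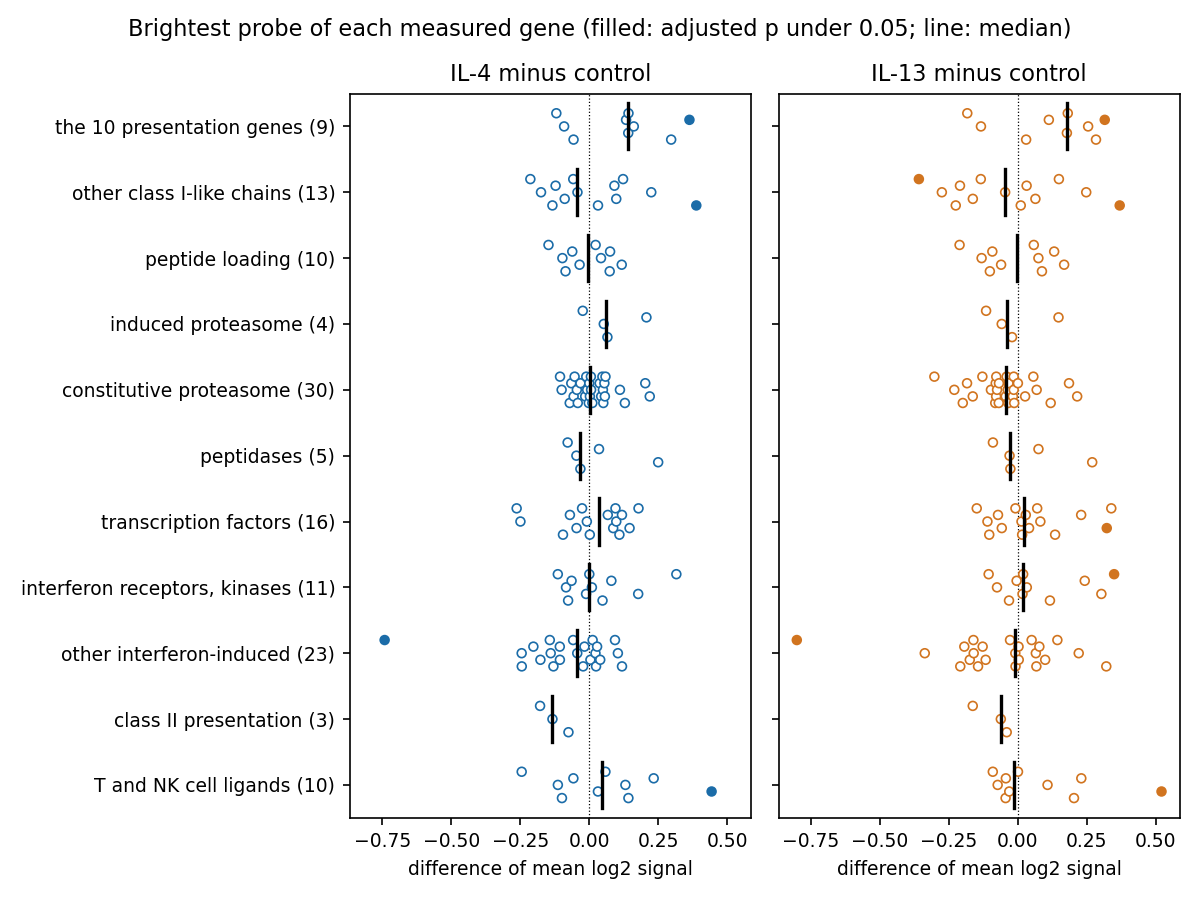
Change in normalised log2 signal (cytokine minus control) of the brightest probe of each tested gene in the lists around class I presentation, with IL-4 in the left panel and IL-13 in the right, the number of tested genes in parentheses and the list median as a line; filled points passed at adjusted p under 0.05 in the fit of all probes. The filled points with IL-4 are H2-K1, H2-Q5, Ifit3 and Vcam1, and those with IL-13 are H2-T23, H2-Q5, Azgp1, Relb, Ifngr2, Ifit3 and Vcam1.

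Of 16 tested regulators of class I transcription 0 passed with IL-4 and 1 with IL-13, namely Relb, an NF-kB subunit, which averaged 7.62 ± 0.06 with IL-4 and 7.83 ± 0.07 with IL-13, against 7.51 ± 0.05 in control. Its IL-13 change was 0.32 ± 0.07 (limma adjusted p = 0.0152) and its IL-4 change 0.12 ± 0.07 (adjusted p = 0.572), and without IL-13 2 or IL-13 3 it did not pass (0.0571 and 0.0525). Irf1 and Irf2, interferon regulatory factors that bind class I promoters, changed by -0.07 and 0.18 with IL-4 and by 0.08 and 0.34 with IL-13, none past the threshold. Of 11 tested genes of interferon reception 1 passed, Ifngr2, a chain of the interferon gamma receptor, at 0.35 ± 0.08 with IL-13 (adjusted p = 0.0224) beside 0.32 ± 0.08 with IL-4 (adjusted p = 0.0575). The Ifngr2 call was lost without IL-13 1, IL-13 2, control 2 or control 4 (0.0523 to 0.0893).

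Among 23 tested interferon-induced genes, 0 were higher and 1 was lower with each cytokine, and the list's median change was -0.04 with IL-4 and -0.01 with IL-13. Ifit3, an antiviral gene, was that gene, at -0.74 ± 0.13 with IL-4 and -0.80 ± 0.13 with IL-13 (limma adjusted p = 0.00312 and 0.00102). Of the 23 genes 9 had a positive change with IL-4 and 10 with IL-13. Dtx3l had the most positive one with IL-13, at 0.32 (adjusted p = 0.0869), and Gbp2 and Isg15 had -0.24 and -0.14 with IL-4 and -0.12 and -0.17 with IL-13, none past the threshold.

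Class II genes were mostly undetected, with 3 of 11 tested (H2-DMa, H2-Eb2 and Cd74) and 0 called. Of 10 tested ligands that co-regulate T and natural killer cells 1 was higher with each cytokine, Vcam1, an adhesion molecule for leukocytes, at 0.44 ± 0.10 with IL-4 and 0.52 ± 0.10 with IL-13 (limma adjusted p = 0.0199 and 0.00407). Its IL-4 call was lost without IL-4 1, IL-4 2, control 1 or control 2 (0.0612 to 0.0819), and 2 dimmer Vcam1 probes did not pass. A further probe of Pvr, a ligand of natural killer receptors, was lower with IL-13, by -0.31 ± 0.08 (adjusted p = 0.0493, and over 0.05 without any array but IL-13 4), and its brightest probe was not (-0.07, adjusted p = 0.738). Cd274, which encodes the checkpoint ligand PD-L1, changed by -0.24 and -0.09 and did not pass.

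The 5 genes whose brightest probe most resembled probe 1 of H2-K1 over the 12 arrays, by Pearson correlation among 10452 genes, were Trim16 (r = 0.893), Ubxn1 (0.888), Tmem86a (0.883), Degs1 (0.882) and Arrdc4 (0.864). The arrays share the group differences and the chips, so the values describe these arrays only. With group means removed, r was 0.896 for Trim16, 0.862 for Ubxn1, 0.773 for Tmem86a, 0.903 for Degs1 and 0.569 for Arrdc4. H2-T23 probe 1 ranked 206 of 10452 with r = 0.683, which fell to 0.25 with group means removed. B2m probe 1 had r = 0.329 and Tap1 r = -0.307, and with group means removed both turned sign, to -0.341 for B2m and 0.0917 for Tap1.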

How the data were processed

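RNA of 12 samples was amplified (Illumina TotalPrep) and hybridised with a Cy3 label, per the labels' protocols, and the submitters' processing notes name GenomeStudio 2011.1. For every one of 45281 probes the non-normalized table gives an intensity and its detection p-value, per the file headers. The intensities are linear, and the authors deposited them with neither normalisation nor background subtraction. The authors' deposited log2 values were found to be the log2 of these intensities plus a constant for each array.

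Intensities were normalised with neqc in limma 3.58.1 (R 4.3.3; offset 16, common quantiles, log2). Probes detected (p under 0.05) on at least 4 of 12 arrays were kept, 19915 in number. A single limma model over all 12 arrays gave the 3 comparisons, two-sided, with Benjamini-Hochberg adjustment over all kept probes. The platform table names 1 gene for 34885 probes, several for 18 and none for 10378. Differences between probes of a gene were compared with exact permutation tests, in a family of 24. Promoters came from RefSeq (GRCm38.p6). The fit was tested on simulated data. Position on the chip is fixed for each group, so position and treatment cannot be told apart.

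The text covers every probe of the 10 genes, though not each by its identifier. It names every gene with a called probe in the wider lists (up to 4 per list and comparison) and the 5 genes most like H2-K1. Examples that did not pass were picked with their values known. The members and lists were chosen with earlier results of these data known. Alternatives covered background correction, offset, scaling, filter, probe rule, chip, variance model, threshold and each array left out.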

Additional observations from a re-analysis of the deposited data

Results flagged for a closer look

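In the groups of 4 arrays, a single value stood apart from its group. For probe 1 of Tapbp, control 2 read 6.49 on the log2 scale, while the other control arrays lay between 6.79 and 6.85, so its gap to the nearest array was 0.844 of the range of the group. Of 54 such groups examined, 1 had a value this far apart, and chance alone gives about 1 in 20. Tapbp did not pass with either cytokine.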

How the results depend on the processing

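The number of class I probes that passed with IL-4, 3 as reported, became 5 without background correction, 1 in the deposited log2 values, 1 when a gene's probes were averaged, 1 on chip 1 alone, 0 on chip 2 alone, 1 at adjusted p under 0.01 and 1 without the 3 arrays with most hemoglobin signal. With IL-13, 3 as reported, it became 1 with 75th percentile scaling, 0 in the deposited log2 values, 1 with one probe per gene, 1 when a gene's probes were averaged, and 0 on chip 1 alone, on chip 2 alone and at adjusted p under 0.01. Leaving out each array in turn gave 1 to 3 with IL-4 and 0 to 3 with IL-13. Each chip alone has 2 arrays a group, and a mean over probes leaves 9 values in place of 18. The cause of the other shifts was not tested.

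Over all probes, the 473 calls with IL-4 became 259 on chip 1, 128 on chip 2, 263 at adjusted p under 0.01 and 216 without the hemoglobin-rich arrays. The 755 calls with IL-13 became 288 on each chip and 388 at adjusted p under 0.01. The 0 calls between the cytokines became 1 on chip 1 and 2 with a trended, robust variance model. The deposited log2 values turned the balance of calls, with 173 of 544 higher for IL-4 (31.8%, against 66.0%) and 290 of 877 for IL-13 (33.1%, against 61.6%).

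Direction was checked for the class I probes and 9 other genes with calls, and none of their called changes reversed in any alternative; it was not checked for the other probes. The 3 called class I probes of each comparison have 89 values over the alternatives, and the call was lost in 24 of 89 with IL-4 and 33 of 89 with IL-13. Among the probes not called, 11 calls were gained with IL-4 and 1 with IL-13. With group means removed, same-numbered arrays of different groups correlated with r from -0.168 to 0.176, and 5 of 12 pairs were over 0.1. These values do not settle whether the numbers pair the arrays. A replicate block gave 3 and 3 class I probes and 460 and 737 probes in all.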
